A study of Mus musculus with 6 samples.

Results

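The RLTR families of rodents are long terminal repeats (LTRs) of endogenous retroviruses, counted here among the repeat families of juvenile mouse testis. Members were chosen by name: every repeat family whose name starts with RLTR, without names that hold IAP or ETN and without RLTR1, RLTR4, RLTR5, RLTR6 and RLTR10. This gave 131 of 363 families, which carry 35 different numbers after RLTR. The names and lengths were those of LTRs, since no member was named as an internal sequence and lengths ran from 305 to 1950 bases with a median of 530. Whether the reads came from solitary LTRs or from LTRs that still flank a provirus cannot be read from the table, because reads were counted per family and not per position.

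An LTR holds the promoter, enhancer and polyadenylation signal of a retrovirus, and recombination between the LTRs of a provirus leaves a solitary LTR behind. Such copies can go on starting transcripts or acting as enhancers of nearby genes. RLTR9 and RLTR13 are LTRs of the ERVK class, with copies known as enhancers in mouse embryonic stem cells and trophoblast stem cells, respectively, whereas RLTR30 and RLTR41 belong to ERV1. In fetal male germ cells, transposons are silenced by DNA methylation that piRNAs direct, and SPOCD1 is a protein of that pathway.

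Testes of 3 wild-type mice and 3 Spocd1ΔSPIN1 mice were taken at postnatal day 20 (P20) for RNA-seq, with RNA from a single testis per mouse. Spocd1ΔSPIN1 mice were homozygous for an allele in which alanines replace residues through which SPOCD1 contacts SPIN1, a reader of histone marks, with the aim of breaking that contact. Both genotypes had the mixed strain B6CBAF1/Crl and C57BL/6N, neither received a treatment, and the allele came from a single founder animal. The comparison asks which repeat families differ in RNA level when SPOCD1 cannot bind SPIN1. Total counts over all families were 416517, 369598 and 499166 in wild-type replicates 1, 2 and 3, and 842018, 1013224 and 918487 in the Spocd1ΔSPIN1 replicates. Genes were not part of the table, so genotype, tissue and cell types could not be checked against markers. In whole testis, fewer cells of a type and less RNA per cell cannot be told apart.

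The 131 members together had 7904, 7290 and 9931 counts in wild type and 7371, 8245 and 7334 counts in Spocd1ΔSPIN1 mice. These raw sums overlapped between genotypes, although the Spocd1ΔSPIN1 libraries had higher totals. As a share of all counts, members took 1.95% ± 0.049 in wild type and 0.829% ± 0.041 in Spocd1ΔSPIN1 mice (SD, n = 3 mice of each genotype). LINE1 families, whose names start with L1 or Lx, took 44.9% ± 2.22 of wild-type counts and 66.2% ± 4.98 of Spocd1ΔSPIN1 counts, which left a smaller share for all other families. Of the counts outside LINE1, members took 3.55% ± 0.17 in wild type and 2.48% ± 0.23 in Spocd1ΔSPIN1 mice. On each of these scales all 3 Spocd1ΔSPIN1 libraries lay below all 3 wild-type libraries. Over all families, Spocd1ΔSPIN1 replicate 1 stood apart from the other Spocd1ΔSPIN1 libraries, with 60.5% of its counts in LINE1 against 68.5% and 69.6%. Over the members alone, the chi-square per degree of freedom between Spocd1ΔSPIN1 replicates was 1.04 to 1.28, where 1 is counting noise, and it was 1.31 to 1.99 between wild-type replicates.

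**Figure D1:**
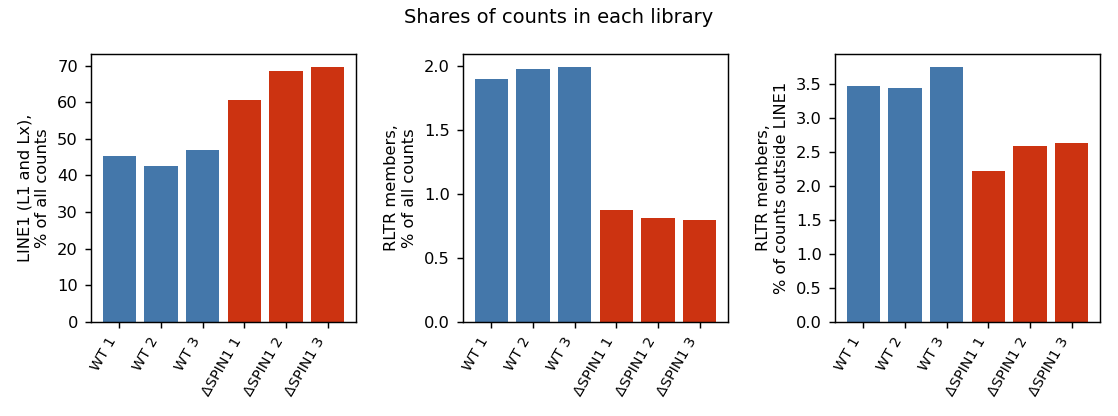
Bars show, for each of the 3 wild-type (WT, blue) and 3 Spocd1ΔSPIN1 (red) libraries, the percentage of all counts in LINE1 families, the percentage of all counts in RLTR members, and the percentage of counts outside LINE1 in RLTR members. The LINE1 share was higher and both RLTR shares were lower in each Spocd1ΔSPIN1 library than in any wild-type library.

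Libraries were scaled with the trimmed mean of M-values (TMM), a method that takes the bulk of families as unchanged, and levels are given as CPM, counts relative to the TMM-scaled library size. Scaling by total counts in place of TMM moved the log2 fold changes of all families by −1.04 to −0.99. Scaling by the total outside LINE1 moved them by −0.36 to −0.25. Fold changes below are relative to TMM and give Spocd1ΔSPIN1 over wild type. On the TMM scale the members summed to 13757 ± 610 CPM in wild type and 11781 ± 232 CPM in Spocd1ΔSPIN1 mice (SD, n = 3 each). The sums ran from 13222 to 14421 in wild type and from 11529 to 11986 in Spocd1ΔSPIN1 mice, without overlap.

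Counts sufficed to test 89 of the 131 members with edgeR's quasi-likelihood test, which was fitted on 292 families. None of the 42 members left untested had more than 17 counts in any library. The filter's minimum, 14.9 CPM, is set on raw library totals and not on the TMM scale, so it asked for more counts in the Spocd1ΔSPIN1 libraries, which had higher totals. Of the 89, 24 reached it in all 3 wild-type libraries but not in all 3 Spocd1ΔSPIN1 libraries, and 0 the other way round. On the TMM scale, 17 of these 24 had log2 fold changes below 0 and 7 above, all of them below 0 when scaled by total counts. These 24 hold 6 of the members called lower by Benjamini-Hochberg adjustment, namely RLTR9A2, RLTR9F, RLTR41, RLTR41B, RLTR49 and RLTR24_MM, the last named after its values were seen. After Bonferroni adjustment over the 292 families, with a threshold of 0.05, edgeR's test called 4 of the 89 members lower in Spocd1ΔSPIN1 mice (4.49%, against 2.74% of all tested families). It called 0 members higher (against 5.48% of all tested families), and DESeq2's Wald test also called 0 higher (against 10.3%). On that side 7 members had an unadjusted p under 0.05 in edgeR's test. In either direction 35 of the 89 members had one, against 124 of all 292 tested families. The called members were RLTR9A2, RLTR30B_MM, RLTR41A2 and RLTR13D2, and without Spocd1ΔSPIN1 replicate 1 the last 3 of these were called. Without Spocd1ΔSPIN1 replicate 2 the count was 2 (2.15% of tested members, against 1.68% of all tested families called lower). Without wild-type replicate 1 it was 6, all lower (6.06% against 3.54%). With Benjamini-Hochberg adjustment in edgeR's test on all 6 libraries, 24 members were called lower (27%, against 16.1% of all tested families) and 3 higher (3.37%, against 15.4%). All 3 Spocd1ΔSPIN1 values lay below all 3 wild-type values for 34 members (38.2%, against 25% of all tested families), and above them for 5 (5.62%, against 20.9%). Of the 34, 10 were among the 24 that reached the filter's minimum through the wild-type libraries alone. The lean to lower values was not particular to the members. Of the 23 tested RLTR names left out by the rule, Benjamini-Hochberg adjustment called 30.4% lower and 8.7% higher. For 52.2% of them all Spocd1ΔSPIN1 values lay below all wild-type values, and for 8.7% above. The median log2 fold change was −0.19 over the tested members and −0.039 over all tested families, on the TMM scale. Without Spocd1ΔSPIN1 replicate 1 these medians were −0.29 and −0.066, and that of the members ran from −0.29 to −0.20 with each library left out. When at least 10 counts were asked of every library, 73 members were tested and the same 4 were called (5.48%, against 3% of all 267 tested families called lower). The median was then −0.18 over the members and −0.038 over all tested families. These shares and medians describe the list and were not tested as a set.

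**Figure D2:**
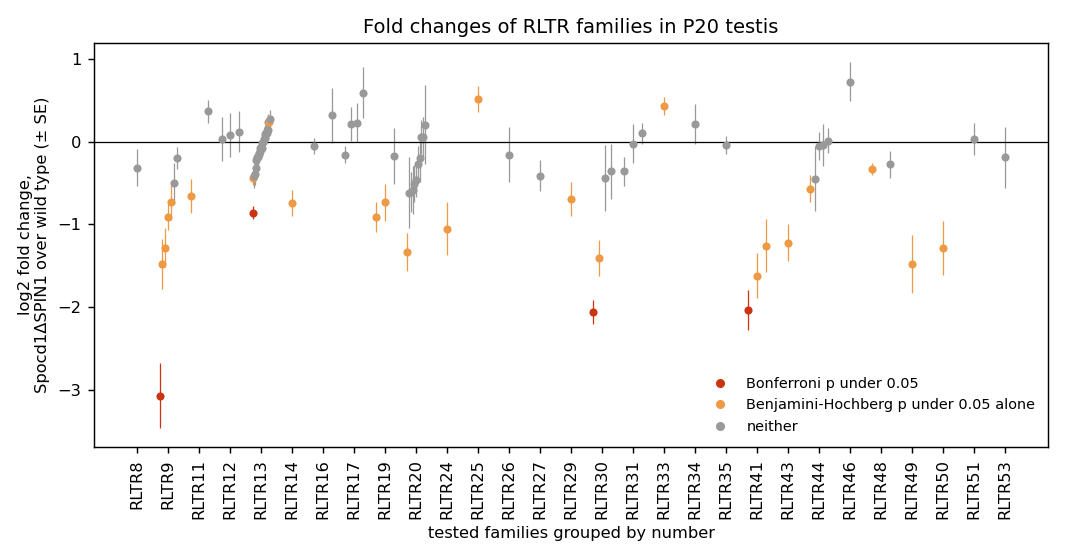
Each point is the TMM-scaled log2 fold change of a tested member in Spocd1ΔSPIN1 over wild-type testes, with its standard error (SE), grouped by the number after RLTR. Members past the Bonferroni threshold are red, those past the Benjamini-Hochberg threshold alone are orange, and points above 0 in RLTR13, RLTR25, RLTR33 and the other groups fall below 0 when libraries are scaled by total counts.

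Among the tested members, the fall with the largest fold change was that of RLTR9A2, an LTR of 380 bases. Its level was 95.4, 231 and 198 CPM in the wild-type replicates and 20.9, 22.4 and 18.0 CPM in the Spocd1ΔSPIN1 replicates. The genotypes did not overlap, and wild-type replicate 1 was the lowest of its group while the Spocd1ΔSPIN1 libraries were close to each other. These levels came from 57, 117 and 144 counts in wild type and from 13, 16 and 11 counts in Spocd1ΔSPIN1 mice, and counting error alone was 30.2% at the lowest count. RLTR9A2 was the 1 called member that met the filter, on raw library totals, in all wild-type libraries but not in all Spocd1ΔSPIN1 libraries. It was also tested and called when at least 10 counts were asked of every library. The log2 fold change was −3.07 (SE 0.39), or 8.42-fold lower (Bonferroni-adjusted p = 0.0181 in edgeR's quasi-likelihood test). This call rested on every library but wild-type replicate 1. The Bonferroni-adjusted p in edgeR's test was 0.000109 without that library, and 0.0542, 0.0752, 0.0859, 0.117 and 0.145 without wild-type replicate 2, wild-type replicate 3 and Spocd1ΔSPIN1 replicates 1, 2 and 3, respectively. The log2 fold change stayed between −3.36 and −2.86 in these fits.

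RLTR9 has 13 members, and the 7 that were tested all had log2 fold changes below 0 under each scaling, with a median of −0.91. On the TMM scale, 56.5% of all tested families lay below 0. Apart from RLTR9A2, the test with Benjamini-Hochberg adjustment called RLTR9D2, RLTR9F, RLTR9D and RLTR9A3 lower (16.1% of all tested families were called lower). Like RLTR9A2, RLTR9F met the filter through the wild-type libraries alone, so these counts are a description. RLTR9F also had under 10 counts in a Spocd1ΔSPIN1 library. RLTR9D2 had 127, 273 and 166 CPM in wild type and 77.0, 68.5 and 53.9 CPM in Spocd1ΔSPIN1 mice, with a log2 fold change of −1.48 (SE 0.30; adjusted p in edgeR's quasi-likelihood test 0.00734 by Benjamini-Hochberg and 0.367 by Bonferroni). RLTR9D had 149, 208 and 177 CPM in wild type and 99.5, 81.1 and 103 CPM in Spocd1ΔSPIN1 mice, a log2 fold change of −0.91 (SE 0.16). Neither family overlapped between genotypes. RLTR9E differed from these: it had 141, 189.9 and 163 CPM in wild type and 146, 149.6 and 132 CPM in Spocd1ΔSPIN1 mice, with overlapping groups and a log2 fold change of −0.20 (SE 0.13). That value was −0.29 without wild-type replicate 1 and −0.094 without wild-type replicate 2. Per kb of sequence, the mean level of RLTR9A2 in wild type was 460.0 CPM and that of RLTR9E was 397 CPM, while in Spocd1ΔSPIN1 mice they were 53.7 and 344 CPM. The 6 untested RLTR9 members had at most 17 counts in a library.

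Among the ERV1 members, RLTR30B_MM, an LTR of 482 bases, had the smallest adjusted p of all members. Its level was 130.5, 148 and 136 CPM in the wild-type replicates and 30.5, 30.8 and 37.6 CPM in the Spocd1ΔSPIN1 replicates. Every wild-type library lay far above every Spocd1ΔSPIN1 library, and the spread within each genotype was small. These levels came from 78, 75 and 99 counts in wild type and from 19, 22 and 23 counts in Spocd1ΔSPIN1 mice. Counting error alone was 22.9% at the lowest count, so the small spread is no measure of precision. The log2 fold change was −2.06 (SE 0.15), or 4.18-fold lower (Bonferroni-adjusted p = 0.000251 in edgeR's quasi-likelihood test). RLTR30_MM, the most abundant relative with the same number, had 179, 271 and 276 CPM in wild type and 80.2, 113 and 78.4 CPM in Spocd1ΔSPIN1 mice. Its groups did not overlap either, and its log2 fold change was −1.40 (SE 0.21; adjusted p in edgeR's quasi-likelihood test 0.00233 by Benjamini-Hochberg and 0.0616 by Bonferroni). The remaining tested RLTR30 families, RLTR30D_MM and RLTR30D2_MM, had at most 18 counts in a library, overlapping groups and log2 fold changes of −0.36 (SE 0.33) and −0.43 (SE 0.40). With a library left out, these ran from −0.69 to −0.098 for RLTR30D_MM and from −0.82 to −0.085 for RLTR30D2_MM.

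RLTR41 has 4 members, and the 3 tested were each lower in all Spocd1ΔSPIN1 libraries than in any wild-type library (against 25% of all tested families). On raw library totals, RLTR41B and RLTR41 met the filter through the wild-type libraries alone, so the count is a description. RLTR41A2, an LTR of 473 bases, had 137, 188 and 141 CPM in the wild-type replicates and 51.3, 35.0 and 26.1 CPM in the Spocd1ΔSPIN1 replicates. Wild-type replicate 2 was the highest and Spocd1ΔSPIN1 replicate 3 the lowest. The counts were 82, 95 and 103 in wild type and 32, 25 and 16 in Spocd1ΔSPIN1 mice, with a counting error of 25% at the lowest count. The log2 fold change was −2.03 (SE 0.24), or 4.10-fold lower (Bonferroni-adjusted p = 0.00925 in edgeR's quasi-likelihood test). Without Spocd1ΔSPIN1 replicate 2 the Bonferroni-adjusted p in edgeR's test was 0.0908, with a log2 fold change of −1.98. RLTR41B had 48.5, 77.1 and 86.5 CPM in wild type and 27.3, 22.4 and 19.6 CPM in Spocd1ΔSPIN1 mice, a log2 fold change of −1.62 (SE 0.27; adjusted p in edgeR's quasi-likelihood test 0.00359 by Benjamini-Hochberg and 0.124 by Bonferroni). RLTR41, the least abundant of the 3, had a log2 fold change of −1.26 (SE 0.32). The untested RLTR41C had 6, 7 and 7 counts in wild type and 3, 8 and 5 in Spocd1ΔSPIN1 mice.

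RLTR13 is the largest group, with 24 members that were all tested, and its sequences are longer, at 799 to 1156 bases. It took 56.8% ± 1.70 of member counts in wild type and 61.7% ± 0.39 in Spocd1ΔSPIN1 mice (SD, n = 3 each). The 5 members with the highest mean normalized CPM per kb were all RLTR13 families, namely RLTR13B1 at 937, RLTR13B2 at 699, RLTR13C2 at 666, RLTR13B4 at 603 and RLTR13B3 at 546. The median log2 fold change of RLTR13 was −0.078, and 23 of its 24 members lay between −0.5 and 0.5, compared with 36 of the 65 tested members with other numbers, whose median was −0.33. Whether RLTR13 and the other members differed was not tested.

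RLTR13D2, of 1057 bases, was the exception. It had 328, 338 and 359.5 CPM in the wild-type replicates and 189, 190.2 and 188 CPM in the Spocd1ΔSPIN1 replicates. The Spocd1ΔSPIN1 values were nearly equal, and all were well below the lowest wild-type value. They came from 118, 136 and 115 counts, with a counting error of 9.3% at the lowest, so their closeness is no measure of precision. The log2 fold change was −0.86 (SE 0.080), or 1.81-fold lower (Bonferroni-adjusted p = 0.00197 in edgeR's quasi-likelihood test). Its neighbours by name had smaller log2 fold changes, some with overlapping groups and some without. RLTR13D had 211, 243 and 191 CPM in wild type and 239, 222 and 221 CPM in Spocd1ΔSPIN1 mice, with overlapping groups and a log2 fold change of 0.090 (SE 0.11) that was −0.92 when scaled by total counts and −0.21 by the total outside LINE1. RLTR13D1, RLTR13D4 and RLTR13D5 had log2 fold changes of −0.017, −0.18 and −0.14 with overlapping groups, of which that of RLTR13D1 was 0.034 with TMM factors from families outside LINE1. RLTR13D3 also overlapped, with a log2 fold change of 0.031 that was −0.99 when scaled by total counts and −0.27 by the total outside LINE1. RLTR13D6, RLTR13D3A and RLTR13D3A1 were lower in all Spocd1ΔSPIN1 libraries than in any wild-type library, like RLTR13D2, but missed both thresholds. RLTR13D6 had 146, 174 and 191 CPM in wild type and 135, 112 and 139 CPM in Spocd1ΔSPIN1 mice, a log2 fold change of −0.41 (SE 0.14; Benjamini-Hochberg-adjusted p = 0.0580 in edgeR's quasi-likelihood test). RLTR13D3A and RLTR13D3A1 had log2 fold changes of −0.32 (SE 0.14) and −0.22 (SE 0.071), with Benjamini-Hochberg-adjusted p = 0.117 and 0.0504 in edgeR's quasi-likelihood test.

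Among the other RLTR13 families, the test with Benjamini-Hochberg adjustment called RLTR13B2 lower and RLTR13A2 higher on the TMM scale, the latter direction turning under both total-count scalings. RLTR13B2 had 599, 718 and 668 CPM in wild type and 493, 469.8 and 500.1 CPM in Spocd1ΔSPIN1 mice, a log2 fold change of −0.44 (SE 0.085; Benjamini-Hochberg-adjusted p = 0.00577 in edgeR's quasi-likelihood test). RLTR13A2 had 409.9, 384 and 384 CPM in wild type and 457, 485 and 449 CPM in Spocd1ΔSPIN1 mice. Its log2 fold change was 0.24 (SE 0.072; Benjamini-Hochberg-adjusted p = 0.0369 in edgeR's quasi-likelihood test), and it was −0.77 when scaled by total counts and −0.058 by the total outside LINE1. RLTR13B1, the most abundant member per kb, had 855, 746 and 814 CPM in wild type and 849, 832 and 923 CPM in Spocd1ΔSPIN1 mice. Its groups overlapped, and its log2 fold change of 0.11 (SE 0.079) was −0.91 when scaled by total counts and −0.19 by the total outside LINE1. Across RLTR13, the groups overlapped for 17 of the 24 families (70.8%, against 54.1% of all tested families).

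**Figure D3:**
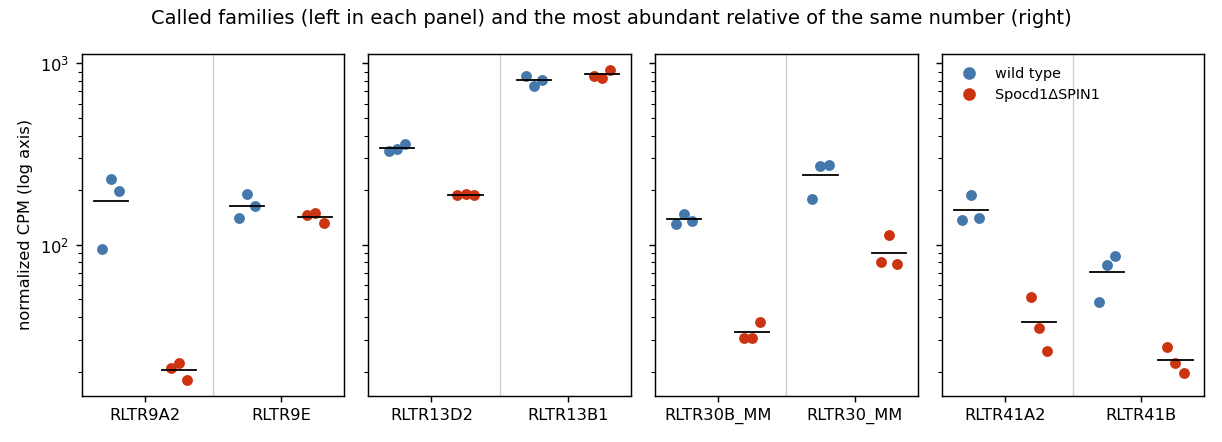
Points are normalized CPM on a log axis in each of 3 wild-type (blue) and 3 Spocd1ΔSPIN1 (red) libraries, and lines are group means. Each panel shows a called family at left and the tested relative of the same number with the highest mean CPM at right, and the called families, RLTR30_MM and RLTR41B are lower in all Spocd1ΔSPIN1 libraries while RLTR9E and RLTR13B1 overlap between genotypes.

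A ratio of counts within a library needs no scaling between libraries, so each called member was set against the tested relative of its own number with the highest mean CPM (log2 of the counts plus 0.5). The called members were picked for their fall in the same libraries, so the ratios describe how unequal the relatives were and are not independent evidence of a fall. RLTR9A2 and RLTR41B also met the filter, on raw library totals, through the wild-type libraries alone. The smallest p that 3 mice against 3 can give in an exact two-sided permutation test is 0.1, so no ratio could pass 0.05. Adjustment over the 4 ratios used the Benjamini-Hochberg method. The log2 ratio of RLTR9A2 to RLTR9E was −0.56, 0.28 and 0.27 in wild type and −2.76, −2.70 and −2.83 in Spocd1ΔSPIN1 mice, a difference of −2.76 (exact permutation p = 0.1, adjusted p = 0.133). That of RLTR13D2 to RLTR13B1 was −1.38, −1.14 and −1.18 in wild type and −2.16, −2.13 and −2.29 in Spocd1ΔSPIN1 mice, a difference of −0.96 (exact permutation p = 0.1, adjusted p = 0.133). In both, the genotypes lay well apart. The ratio of RLTR30B_MM to RLTR30_MM differed less, at −0.45, −0.86 and −1.02 in wild type and −1.37, −1.86 and −1.05 in Spocd1ΔSPIN1 mice (difference −0.65, exact permutation p = 0.1, adjusted p = 0.133). Here wild-type replicate 3 and Spocd1ΔSPIN1 replicate 3 nearly met, and the difference was −0.43 without Spocd1ΔSPIN1 replicate 2 and −0.84 without Spocd1ΔSPIN1 replicate 3. For RLTR41A2 to RLTR41B the groups overlapped, with log2 ratios of 1.48, 1.27 and 0.70 in wild type and 0.89, 0.63 and 0.40 in Spocd1ΔSPIN1 mice (difference −0.51, exact permutation p = 0.2, adjusted p = 0.2).

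**Figure D4:**
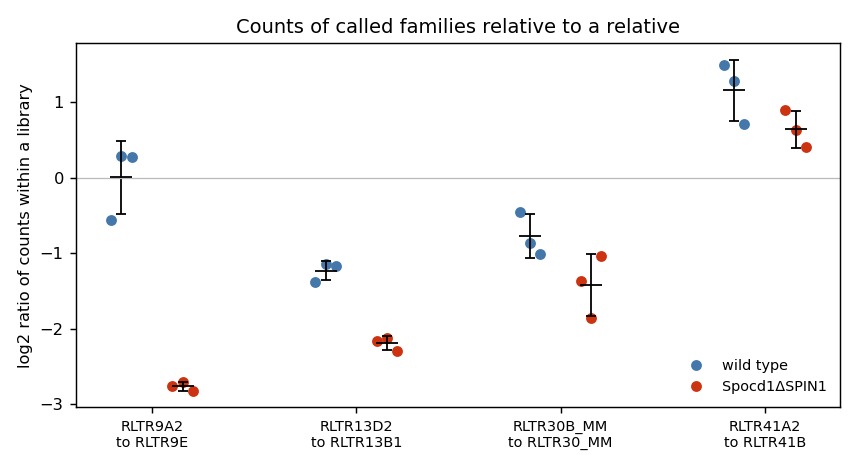
Points are log2 ratios of counts (plus 0.5) of a called family to its relative within each of 3 wild-type (blue) and 3 Spocd1ΔSPIN1 (red) libraries, with the mean and SD in black. The ratios of RLTR9A2 to RLTR9E and of RLTR13D2 to RLTR13B1 differed between genotypes by −2.76 and −0.96, whereas those of RLTR41A2 to RLTR41B overlapped.

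RLTR20 has 13 members with few counts, at most 192 over all 6 libraries, and 11 were tested. With Bonferroni adjustment edgeR's test called 0 of the 11, and 1 had an unadjusted p under 0.05 (124 of all 292 tested families had one). DESeq2's Wald test called the same 1 lower (5.82% of all tested families were called lower). That family, RLTR20D_MM, had 61.9, 91.0 and 71.4 CPM in wild type and 22.5, 29.4 and 36.0 CPM in Spocd1ΔSPIN1 mice. The genotypes did not overlap, and the log2 fold change was −1.33 (SE 0.23; adjusted p in edgeR's quasi-likelihood test 0.00359 by Benjamini-Hochberg and 0.131 by Bonferroni). The median over the 11 was −0.46, and 6 of them had groups that did not overlap, all lower in Spocd1ΔSPIN1 mice (25% of all tested families were lower without overlap). Of the 11, 9 met the filter through the wild-type libraries alone, 4 of the 6 among them, so the count is a description. RLTR49, the only family of its number, met the filter through the wild-type libraries alone and had 16, 23 and 43 counts in wild type and 9, 14 and 8 in Spocd1ΔSPIN1 mice. Its log2 fold change was −1.48 (SE 0.35; adjusted p in edgeR's quasi-likelihood test 0.0147 by Benjamini-Hochberg and 0.910 by Bonferroni).

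RLTR25_MM and RLTR33_MM were higher in Spocd1ΔSPIN1 mice on the TMM scale and with every other scaling but total counts, which turned both. RLTR25_MM, of 1834 bases, had 321, 311 and 232 CPM in wild type and 467, 344 and 422 CPM in Spocd1ΔSPIN1 mice. Its log2 fold change was 0.52 (SE 0.16; Benjamini-Hochberg-adjusted p = 0.0377 in edgeR's quasi-likelihood test), and −0.49 when scaled by total counts. RLTR33_MM had 161, 184 and 154 CPM in wild type and 207, 222 and 239 CPM in Spocd1ΔSPIN1 mice, with a log2 fold change of 0.43 (SE 0.11; Benjamini-Hochberg-adjusted p = 0.0189 in edgeR's quasi-likelihood test) that was −0.59 when scaled by total counts. In neither family did the genotypes overlap, and neither passed the Bonferroni threshold. RLTR11B and RLTR13C1 also had groups apart, with log2 fold changes of 0.37 (SE 0.14) and 0.24 (SE 0.10) that missed both thresholds and were −0.65 and −0.78 when scaled by total counts. By the total outside LINE1, that of RLTR13C1 was −0.063.

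The groups RLTR12, RLTR17 and RLTR31 held no call by either adjustment. Over all tested families, 8.22% were called by Bonferroni and 31.5% by Benjamini-Hochberg adjustment. The test covered 3 of 11 RLTR12 families, 4 of 4 RLTR17 families and 3 of 3 RLTR31 families. For each of these tested families the groups of values overlapped, against 54.1% of all tested families. None of the tested families of these groups reached an unadjusted p under 0.05 in edgeR, against 124 of all 292 tested families, or a call in DESeq2. The median log2 fold change was 0.23 for RLTR17, and −0.79 when scaled by total counts and −0.079 by the total outside LINE1. It was 0.11 over 3 families without Spocd1ΔSPIN1 replicate 3. RLTR17_MM, with 2234 counts over all 6 libraries, was at −0.15, and the others, with at most 148 counts, were at 0.22 to 0.60. The median of RLTR12 was 0.088, and −0.92 and −0.22 when scaled by total counts and by the total outside LINE1. It was −0.044 without wild-type replicate 1 and −0.088 without Spocd1ΔSPIN1 replicate 1. That of RLTR31 was −0.020, and above 0 with DESeq2's size factors (0.013), TMM factors from families outside LINE1 (0.030), DESeq2's Wald test (0.0042), and without wild-type replicate 1 (0.018) or Spocd1ΔSPIN1 replicate 1 (0.035) or 3 (0.087), so no direction is given for RLTR12 or RLTR31. The RLTR12 families had at most 197 counts over all 6 libraries, and which differences could be detected at such counts was not tested.

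Members were also set out by length, in classes chosen after the values were seen. Of the 36 tested members of up to 500 bases, 30 had a log2 fold change below 0 and 15 were called lower by Benjamini-Hochberg adjustment, with a median of −0.43. Among the 15, RLTR9A2, RLTR9F, RLTR41 and RLTR41B met the filter through the wild-type libraries alone, so the count is a description. Of the 24 members between these classes, 17 had a log2 fold change below 0 and 7 were called lower by Benjamini-Hochberg adjustment, with a median of −0.26. Among the 7, RLTR49 and RLTR24_MM also met the filter through the wild-type libraries alone. Of the 29 members of 800 bases and over, 23 were RLTR13 families, 15 had a log2 fold change below 0, and 2 were called lower and 3 higher by Benjamini-Hochberg adjustment, with a median of −0.00010. The counts above and below 0 hold on the TMM scale, and all 89 members lay below 0 when scaled by total counts. Of the tested families outside the members, Benjamini-Hochberg adjustment called 9 of 68 lower and 6 higher at up to 500 bases, 5 of 41 lower and 5 higher between the classes, and 9 of 94 lower and 31 higher at 800 bases and over. Their log2 fold changes lay below 0 for 38, 28 and 37 families, and their medians were −0.042, −0.14 and 0.10, so among these too the longest families had the highest median on the TMM scale. These families include LINE1 and IAP families, of which Benjamini-Hochberg adjustment called 19 of 46 and 11 of 32 higher, respectively. Length was not set apart from repeat class among them. Most of the longest members were RLTR13 families, so length and number group cannot be told apart there. Mean level did not run in order of length, with medians of 149.7, 39.7 and 220.3 CPM per kb from the shortest class to the longest.

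**Figure D5:**
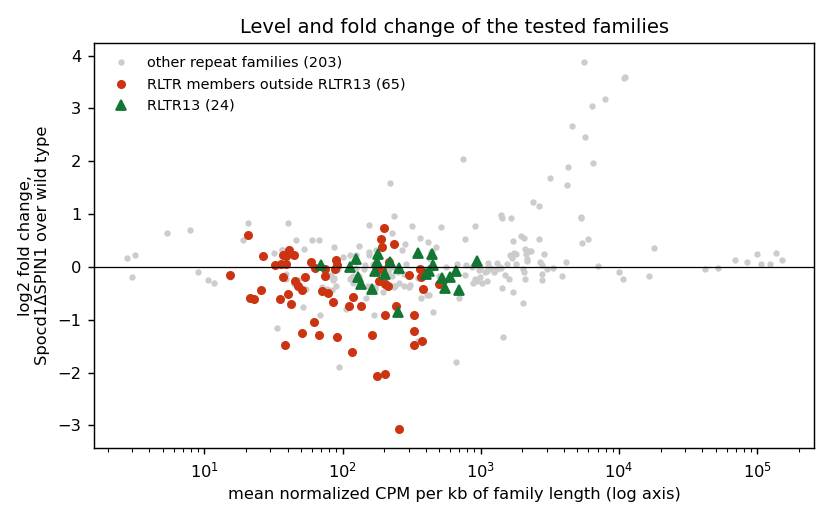
Each point is a tested family, with its mean normalized CPM per kb of sequence on a log axis and its TMM-scaled log2 fold change in Spocd1ΔSPIN1 over wild-type testes. RLTR13 families (green triangles) lie near 0 apart from RLTR13D2, the members with other numbers (red) reach down to −3.07, and the 203 other repeat families (grey) reach up to 3.88, all values moving down by 0.99 to 1.04 when libraries are scaled by total counts.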

How the data were processed

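The authors deposited raw read counts for 363 repeat families in 6 libraries of rRNA-depleted total RNA, and gave a sequence length for each. The submitters' processing notes name cutadapt 1.18, Bowtie2 2.4.2 and the mm10 genome. How reads matching several families were counted is not given in the sources used here, so families with similar sequences may share reads. A row named for the aligner, at 0 in every library, was left out. Libraries were assigned by column names that match the labels. Members and lists were chosen with earlier results of these data known.

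The counts of all families were fitted with edgeR 4.0.16 in R 4.3.3 (TMM, filterByExpr by genotype, glmQLFit and glmQLFTest, no covariate, two-sided), with Bonferroni adjustment over the 292 families tested. SEs were derived from the F statistic. Within-library ratios used an exact permutation test. Named members were those called, all tested relatives of the same number, the 5 most abundant per kb, and outside the called members the 5 largest rises and 5 largest falls without overlap between genotypes. The alternatives were DESeq2 1.42.0 (Wald test), scaling by DESeq2's size factors, by total counts, or by TMM or totals from families outside LINE1, testing without a filter or with 10 counts or more in each library, adjustment by Benjamini-Hochberg, a 2-fold minimum change, a block for replicate number, leaving out each library, and for ratios a pseudocount of 1 or 5. Other lists set out by name were IAP families (32 tested, 1 lower and 3 higher by Bonferroni adjustment, median log2 fold change 0.31), LINE1 families (46 tested, 0 lower and 10 higher, 0.19), the RLTR names left out (23 tested, 2 lower and 1 higher, −0.24) and ERVL and MaLR names (9 tested, 0 lower and 0 higher, −0.10). The mice were separate animals, and counting errors cover counting only, since PCR copies of a molecule can be read more than 1 time.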

Additional observations from a re-analysis of the deposited data

How the results depend on the processing

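RLTR9A2, RLTR30B_MM, RLTR41A2 and RLTR13D2 were lower in Spocd1ΔSPIN1 mice under every alternative, and RLTR30B_MM and RLTR13D2 were called in all 6 fits with a library left out. Members called numbered 4, all lower, in the reported fit. They numbered 11, all lower, with DESeq2's Wald test (12.4% of tested members, against 5.82% of all tested families called lower), 54, all lower, with total counts (60.7% against 57.5%), 17, all lower, with totals outside LINE1 (19.1% against 11%), 27 (24 lower, 3 higher) with Benjamini-Hochberg adjustment (27% against 16.1% lower, 3.37% against 15.4% higher), and 1 when a 2-fold minimum was set (1.12% against 1.03%). With a library left out, 2 to 6 were called, all lower, the fewest without Spocd1ΔSPIN1 replicate 2 (2.15% of members, against 1.68% of all families called lower) and the most without wild-type replicate 1 (6.06% against 3.54%). By construction, Benjamini-Hochberg adjustment asks less and the minimum change more of each family, and the total-count scalings shift every family down. For DESeq2 and the left-out libraries the cause was not tested. With a library left out, the genotype difference in log2 ratio ran from −3.04 to −2.62 for RLTR9A2 to RLTR9E, −1.03 to −0.91 for RLTR13D2 to RLTR13B1, −0.84 to −0.43 for RLTR30B_MM to RLTR30_MM and −0.74 to −0.35 for RLTR41A2 to RLTR41B. The 4 called members were also called by DESeq2, its size factors, both total-count scalings, TMM outside LINE1, no filter and at least 10 counts in every library. With the 2-fold minimum RLTR30B_MM was called, and RLTR9A2, RLTR41A2 and RLTR13D2 were not.

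With the replicate number as a block (replicate block), 3 members were called, all lower (3.37%, against 2.05% of all tested families called lower). RLTR41A2 was not called (Bonferroni-adjusted p = 0.0742 in edgeR's quasi-likelihood test). Deviations of same-numbered libraries from their group means correlated at 0.083, 0.008 and −0.14 over the tested families, and not every library correlated best with its own number. The labels give a replicate number and no pairing. Whether same-numbered libraries shared a batch cannot be read from these correlations, since deviations within a group of 3 sum to 0.

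Of 640 named log2 fold changes under alternatives, 37 changed sign, none of a called member. With total counts these were RLTR13A2 (−0.77), RLTR13D (−0.92), RLTR13C1 (−0.78), RLTR13D3 (−0.99), RLTR13C3 (−0.87), RLTR13A (−0.75), RLTR13E (−0.97), RLTR13B1 (−0.91), RLTR13B (−0.91), RLTR25_MM (−0.49), RLTR33_MM (−0.59) and RLTR11B (−0.65). With totals outside LINE1 they were RLTR13A2 (−0.058), RLTR13D (−0.21), RLTR13C1 (−0.063), RLTR13D3 (−0.27), RLTR13C3 (−0.16), RLTR13A (−0.024), RLTR13E (−0.26), RLTR13B1 (−0.19) and RLTR13B (−0.20). The others had log2 fold changes near 0 in the reported fit. RLTR13A1 was at 0.032 with DESeq2's Wald test, 0.033 with its size factors, 0.050 with TMM outside LINE1, 0.0058 without a filter, 0.0012 with the replicate block, and −0.087 to 0.080 with a library left out. RLTR13D1 was at 0.017 with DESeq2's Wald test, 0.017 with its size factors, 0.034 with TMM outside LINE1, and −0.14 to 0.086 with a library left out. RLTR13D3 ran from −0.038 to 0.14 with a library left out. Depth limits the 42 untested members and the called members with the lowest counts.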

Other observations

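Families with the profile over the 6 libraries most like that of a called member were chosen after the values were seen. The measure was the SD of the log2 ratio of counts, among 291 other tested families. RLTR1F_Mm, IAPEY3_LTR and MERV1_I, named here, lie outside the members, as do 203 of the 292 tested families. RLTR41A2 was most like RLTR1F_Mm, with counts between 1.33 and 2.02 times those of RLTR1F_Mm in the 6 libraries (SD of the log2 ratio 0.25). RLTR30B_MM was most like IAPEY3_LTR, at 0.282 to 0.429 times its counts (SD 0.20), and RLTR13D2 was most like MERV1_I, at 0.462 to 0.552 times its counts (SD 0.099). The profile nearest to RLTR9A2 was that of RLTR41A2, with a wider SD of 0.65. Whether any of these pairs share reads was not tested.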
